A study of Drosophila melanogaster with 33 samples.

Results

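Larval brains carrying the ts1 allele of l(3)mbt over the E2 allele were compared with brains homozygous for E2, both raised at 29 °C, with 3 arrays per genotype out of the 33 arrays of the series. The 6 arrays were chosen by their labels alone, by allele combination, temperature and experimentation site, and no measured value entered the choice. The transheterozygote is written ts1/E2 below (the sample labels spell the second allele ME2) and the homozygote E2. Homozygous ts1 brains at 29 °C (3 arrays run at IRB), homozygous E2 brains raised at 17 °C (3 arrays run at IRB) and wild-type w1118 brains (3 arrays run at IRB, called WT, with no temperature in their labels) were used to place both genotypes. Cultured tumours of rounds 1, 5 and 10, with 3 arrays each run at IRB, entered the estimate of spread and the choice of genes tested. At a second site, EMBL, 3 arrays each were run of ts1 homozygotes at 17 °C, ts1 homozygotes at 29 °C and WT. These 9 arrays entered the choice of genes tested, the fit of all 33 arrays and the fit that chose 1 gene set given below. The labels of the brain samples name larval brains but give no larval age, sex, number of brains per array or second-site markers of the stocks. They do not say that replicates came from separate cultures, so the p-values measure the spread between these samples, which may be technical.

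The product of l(3)mbt binds chromatin through its MBT repeats, named for the malignant brain tumours of the mutant, and has been found in the dREAM and LINT repressor complexes. Its loss in Drosophila larvae causes overgrowth of the optic lobes, and genes normally used in the germ line, among them genes of the piRNA pathway that silences transposons, become active in the brain. The ts1 allele is temperature sensitive. A transheterozygote carries 2 different mutant alleles of the same gene, so a phenotype shared with both homozygotes is attributed to that gene rather than to other changes on either chromosome.

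Each sample's total RNA was read on its own Affymetrix array, and the values are log2 signals after GCRMA, which corrects background by probe sequence and normalizes between arrays. After 1 probe set was kept per gene, 8264 of 11982 genes had a log2 signal over 4 on at least 3 arrays and were tested. This filter counted all 33 arrays of the series, cultured tumours included. A gene is called where limma's Benjamini-Hochberg adjusted p was below 0.05 and the log2 difference was at least 1 in size. The array of E2 replicate 1 stood apart. Its eIF4a control signal was 11.96 lower at the 5′ end than at the 3′ end on the log2 scale (5′ minus 3′ of -11.96), while the other 5 arrays lay between -2.02 and -1.38. It correlated with the other 5 arrays at 0.70 to 0.81 across genes, against 0.95 to 0.97 among the ts1/E2 arrays and 0.97 between E2 replicates 2 and 3. On that array 2221 genes lay over 2 from the median of the 6 arrays, against 20 to 171 genes on the others. The main results of this comparison are therefore given with and without it. On these whole-brain samples, fewer cells of a type and less RNA per cell cannot be told apart.

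Few genes were called between ts1/E2 and E2 brains. limma called 7 of 8264 genes, a background of 0.0847% of the genes tested, with 5 higher and 2 lower in ts1/E2 brains. Higher were Obp99b, an odorant-binding protein gene, Damm, a caspase gene, Pde9, a cyclic nucleotide phosphodiesterase gene, and CG8701 and CG1695, which have no common name. Lower were CG34282 and CG14300. Without E2 replicate 1 the count was 6 genes (0.0726%), 4 higher and 2 lower, and 5 genes were called in both fits: CG14300, CG1695, CG34282, CG8701 and Pde9. All calls rest on a spread estimated over the 8 IRB groups, which include cultured tumours as well as larval brains. With the 6 arrays alone no gene was called by limma, and 143 had an unadjusted p under 0.05, against 794 genes (9.61%) in the fit over all IRB arrays. That number was 402 (4.86%) without E2 replicate 1, 1959 without E2 replicate 2, 2068 without E2 replicate 3 and 379 to 539 without each of the ts1/E2 replicates. With all 33 arrays and a site term, 3 genes were called (Damm, CG8701 and Pde9). The count was 22 without E2 replicate 3, 14 without ts1/E2 replicate 3 and 6 without any one of the other replicates. An exact permutation test of 3 arrays against 3 cannot give a two-sided p below 0.1. With every probe set of each gene fitted, 8 genes were called, the 7 above and Fs. Fs was 3.18 higher in ts1/E2 brains (limma adjusted p = 0.00578) on a probe set that was not the 1 kept for the gene.

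**Figure D1:**
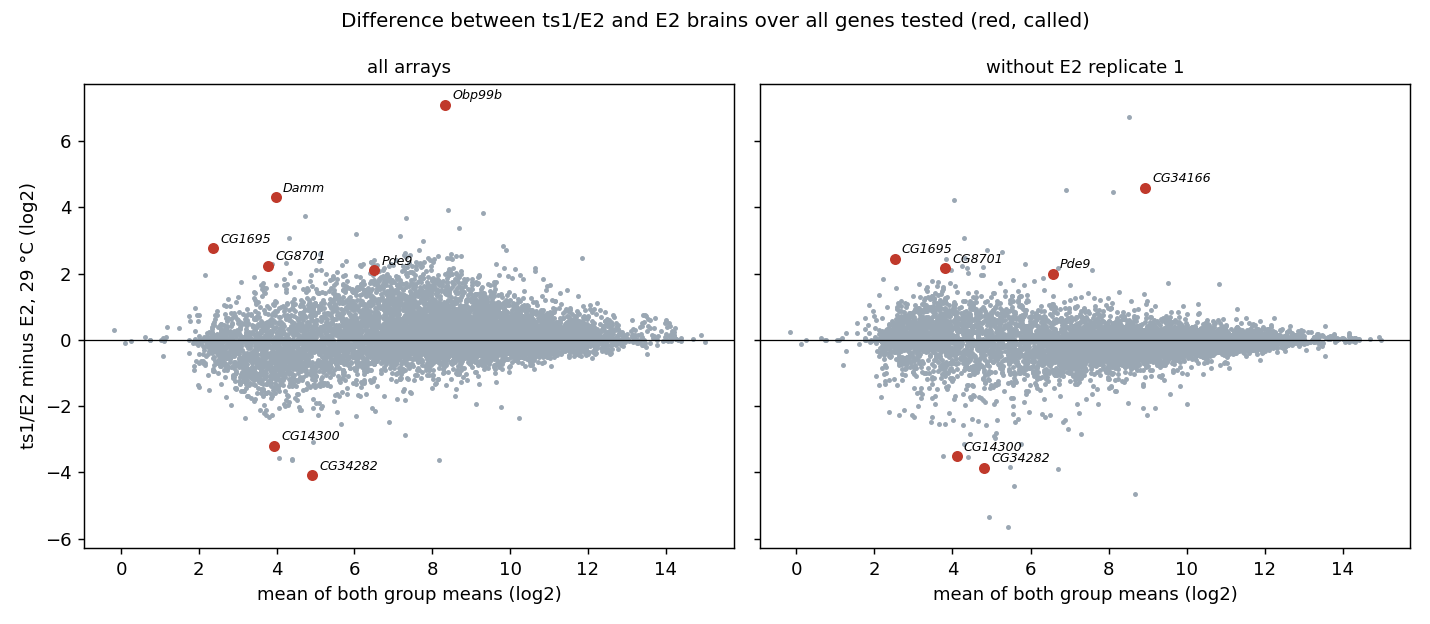
Difference in log2 signal between group means (ts1/E2 minus E2) against their average, 1 point per gene tested, with all arrays on the left and without E2 replicate 1 on the right. Called genes are red and named: 7 with all arrays and 6 without that replicate, where the cloud is narrower.

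The precision of single genes was limited. The median standard error of a difference was 0.416 log2, and its median 95% interval reached 0.874 to each side. The interval lay wholly within 1 of zero for 3094 genes (37.4%), and for 4220 genes (51.1%) without E2 replicate 1. Differences of at least 1 in size were present in 1153 genes (14%) with all arrays but in 426 genes (5.15%) without that replicate. A call needed an adjusted p, so differences larger than these intervals could also go uncalled. Pde9 was called at a difference of 2.11, while CG34166 was not called at 3.84 (limma adjusted p = 0.0975).

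Obp99b had the largest difference. Its log2 signal was 12.47, 12.07 and 11.10 on the ts1/E2 arrays, against 4.03, 5.96 and 4.35 on the E2 arrays. The groups did not overlap, which the rule that named the gene required. The ts1/E2 values lay at the WT level of 11.86 ± 0.62 (SD, n = 3), while ts1 brains averaged 4.02 ± 0.58. The difference was 7.10 (95% interval 4.71 to 9.50, limma adjusted p = 0.00871), and 6.73 without E2 replicate 1, where the call was lost (adjusted p = 0.0659), as it was without ts1/E2 replicate 1 or 2. E2 brains raised at 17 °C averaged 12.71 ± 0.93, so the low level was found in E2 brains at 29 °C and not at 17 °C. CG34166 showed the same order of groups and was not called with all arrays. It had 11.83, 11.12 and 10.72 in ts1/E2 brains and 8.90, 6.58 and 6.68 in E2 brains, a difference of 3.84 (adjusted p = 0.0975) that became 4.59 without E2 replicate 1 (adjusted p = 0.0393). Its WT mean was 10.81 ± 0.77.

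CG8701 and CG1695 also stood higher in ts1/E2 than in E2 brains and low in ts1 brains. CG8701 had 4.66, 4.06 and 5.99 in ts1/E2 brains, against 2.49, 2.53 and 2.94 in E2 brains and 4.78 ± 0.27 in WT brains. Its difference was 2.25 (95% interval 1.53 to 2.96, adjusted p = 0.00628), or 2.17 without E2 replicate 1 (adjusted p = 0.0478). It was not called without the 3 IRB arrays that stood apart, E2 replicate 1, ts1 replicate 6 and E2 at 17 °C replicate 2. The gene overlaps pdm3 on chromosome arm 2R in the RefSeq Release 6 annotation, and pdm3 itself differed by -0.35 and was not called. CG1695, on X, had 4.18, 3.84 and 3.21 in ts1/E2 brains and 0.34, 0.93 and 1.66 in E2 brains, a difference of 2.77 (adjusted p = 0.000134), or 2.45 without E2 replicate 1 (adjusted p = 0.00142). It is called on low signals. WT brains averaged 5.14 ± 0.56, and E2 brains at 17 °C averaged 0.48 ± 0.04, so E2 homozygotes were low at both temperatures. The ts1/E2 mean was also called below WT, by 1.40 (adjusted p = 0.00697). The gene tbc, the second annotated gene beside CG1695, followed the same order. Its means were 3.13 ± 0.86 in ts1/E2, 1.16 ± 0.23 in E2, 0.86 ± 0.04 in ts1 and 4.88 ± 0.95 in WT brains. Against E2 it was not called in the fit over all IRB arrays (difference 1.97, adjusted p = 0.151). A call came only after quantile normalization or without ts1/E2 replicate 3. Against the mean of both homozygotes tbc was called, 2.12 higher (limma adjusted p = 0.00543). It was singled out after its values were seen.

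Damm and Pde9 differed from this order, since the ts1/E2 brains were called above both E2 and WT brains. Damm, related to the caspases that carry out cell death, had 7.29, 5.21 and 5.91 in ts1/E2 brains, against 1.62, 1.34 and 2.50 in E2 brains. The ts1 arrays had 1.66, 4.78 and 1.99 and the WT mean was 3.48 ± 0.68. Its difference was 4.32 (95% interval 2.86 to 5.77, adjusted p = 0.00871), and 4.22 without E2 replicate 1, where the call was lost (adjusted p = 0.0554), as it was without E2 replicate 2 or ts1/E2 replicate 1. Against WT, Damm was 2.65 higher in ts1/E2 brains (adjusted p = 0.0273). Pde9 had 7.93, 7.35 and 7.42 in ts1/E2 brains and 5.25, 5.65 and 5.48 in E2 brains, a difference of 2.11 (95% interval 1.43 to 2.78, adjusted p = 0.00628), and 1.63 against WT (adjusted p = 0.00349). Without E2 replicate 1 the difference from E2 was 2.0 (adjusted p = 0.0478). The other 2 probe sets of Pde9 differed by 0.05 and -0.17, so this call holds for 1 of its 3 probe sets. It was lost without ts1/E2 replicate 1, after quantile normalization and without the 3 arrays that stood apart.

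CG34282 and CG14300, the 2 genes called lower, are adjacent on chromosome arm 3R, the arm that carries l(3)mbt. CG34282 had 2.81, 2.81 and 3.00 in ts1/E2 brains, against 7.41, 7.80 and 5.66 in E2 brains. Its difference was -4.08 (95% interval -4.99 to -3.18, adjusted p = 0.000134; -3.86 without E2 replicate 1). CG14300 had 2.32, 2.39 and 2.32 in ts1/E2 brains and 4.87, 7.43 and 4.30 in E2 brains, a difference of -3.19 (95% interval -4.19 to -2.19, adjusted p = 0.00628; -3.52 without E2 replicate 1). Both genes were low in WT brains and in E2 brains at 17 °C. The WT means were 2.77 ± 0.05 for CG34282 and 2.34 ± 0.00 for CG14300, and the E2 means at 17 °C were 3.10 ± 0.47 for CG34282 and 2.39 ± 0.10 for CG14300. In ts1 brains at 29 °C, CG34282 had 4.89, 3.32 and 3.39, above the ts1/E2 and WT arrays without a call against WT, and CG14300 averaged 2.27 ± 0.10. Among these groups the highest levels of both genes were those of E2 brains at 29 °C. By arm, 2 of the higher calls lay on 2R, 2 on X and 1 on 3R. Chromosome arm 2L had no call among 1498 genes and 3L none among 1615 genes, and the unadjusted p was under 0.05 for 127 genes on 2L and 143 genes on 3L. As a share of each arm this was 8.48% on 2L, 9.62% on 2R, 8.85% on 3L, 10% on 3R, 13.8% on 4 (9 genes) and 10.9% on X, beside 9.61% of all genes. Without E2 replicate 1 the shares ran from 3.65% on 3L to 5.81% on X, beside 4.86% of all genes.

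**Figure D2:**
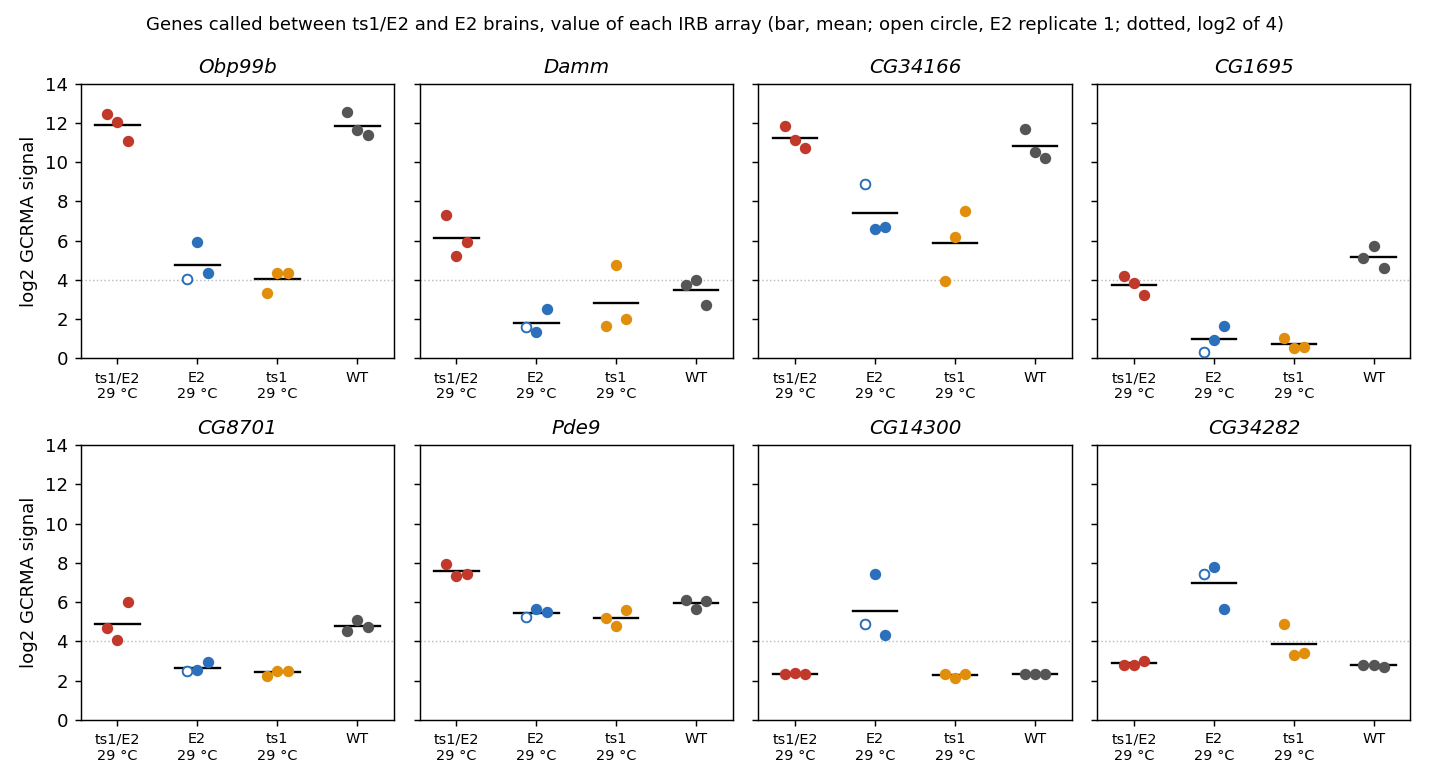
Log2 signal of the 8 genes called with all arrays or without E2 replicate 1, 1 point per IRB array and a bar at the mean, for ts1/E2, E2 and ts1 brains at 29 °C and for WT brains. The 3 ts1/E2 points lie above all 3 E2 points in 6 panels and below them for CG14300 and CG34282, and the dotted line marks a log2 signal of 4.

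The genes with the next largest differences were not called, and several were again high in ts1/E2 and WT brains. Lsp2, a larval storage protein gene of the fat body, had 11.51, 10.82 and 8.74 in ts1/E2 brains, against 7.55, 6.60 and 5.18 in E2 brains, a difference of 3.92 ± 1.24 (SE, limma adjusted p = 0.495), or 4.47 without E2 replicate 1. Fbp2, another fat body gene, had 10.05, 9.50 and 7.98 in ts1/E2 brains and 7.11, 4.69 and 4.64 in E2 brains, a difference of 3.70 ± 0.98 (adjusted p = 0.378), or 4.51 without E2 replicate 1. The groups did not overlap in either gene, which the rule that named these genes required. Fbp1, a receptor for storage proteins, had 2.89 to 6.2 in ts1/E2 brains and 2.76 to 2.84 in E2 brains, against a WT mean of 9.77 ± 0.97. Averaged over the 3 fat body markers on the array, the signal ran from 6.54 to 9.25 over the ts1/E2 arrays, from 4.22 to 5.81 over the E2 arrays, from 3.65 to 4.67 over the ts1 arrays and from 9.74 to 11.22 over the WT arrays. Other genes of the fat body list did not follow these markers. The lipoprotein gene apolpp had 12.43 to 12.62 in ts1/E2 brains and 12.39 to 13.03 in E2 brains, the fatty acid synthase gene FASN1 had 11.83 to 12.20 in ts1/E2 brains and 11.97 to 12.81 in E2 brains, and Apoltp had 5.23 to 6.96 in ts1/E2 brains and 3.60, 7.24 and 6.57 in E2 brains. The median difference over the 21 tested fat body and salivary glue genes was 0.002, or 0.089 without E2 replicate 1. Lsp2 and Fbp2 moved with Obp99b, CG34166 and CG15369. Fbp1 stayed below all its WT arrays on each ts1/E2 array, with 2.89 on ts1/E2 replicate 3. The part of fat body tissue in those differences was not tested. CG15369 had 7.86, 4.99 and 4.70 in ts1/E2 brains, 2.76 to 2.83 in E2 brains and a WT mean of 6.03 ± 1.22.

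On the lower side, some uncalled differences rested on single arrays. ImpE2, an ecdysone-inducible gene, had 2.30, 2.26 and 2.27 in ts1/E2 brains, against 2.31, 10.90 and 4.34 in E2 brains. For karr, ts1/E2 brains had 2.34, 3.11 and 2.30, against 9.57 in E2 replicate 1 and 3.20 and 5.85 in the other E2 arrays. The pio gene, which encodes a protein of the apical extracellular matrix of trachea and cuticle, had 5.12, 7.09 and 5.40 in ts1/E2 brains and 8.83, 9.49 and 7.93 in E2 brains, a difference of -2.88 ± 0.98 (adjusted p = 0.495), or -2.84 without E2 replicate 1. Among 15 tracheal and cuticle genes tested none was called, and their median difference was -0.906, or -0.447 without E2 replicate 1, beside 0.069 and -0.065 over all genes tested. PolA1, the catalytic subunit of DNA polymerase alpha, had 4.2 to 5.78 in ts1/E2 brains, against 5.80 to 8.06 in E2 brains (difference -2.29 ± 0.81, adjusted p = 0.495, or -1.86 without E2 replicate 1). Over all genes, the 3 arrays of each genotype did not overlap for 331 genes higher and 415 lower in ts1/E2 brains, together 9.03% of the genes tested.

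The gene l(3)mbt itself was not called. It had 8.36, 7.82 and 8.05 in ts1/E2 brains, against 6.26, 8.69 and 8.19 in E2 brains and 7.79, 7.85 and 6.91 in WT brains. The groups overlapped, and the difference was 0.36 (95% interval -0.91 to 1.63, adjusted p = 0.826), or -0.36 without E2 replicate 1. An array signal for the transcript does not measure the activity of a mutant protein. Among 16 tested genes of the dREAM, LINT and MBT complexes none was called, and the median difference was 0.108, or -0.080 without E2 replicate 1. For mip130, a dREAM subunit gene, the ts1/E2 arrays had 7.94, 7.61 and 7.41 and the E2 arrays had 1.53, 7.64 and 7.58. The difference of 2.07 became 0.04 without E2 replicate 1, so that array alone set it.

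No germline gene was called between the genotypes, while many were called above WT in both. Of the tested members of the piRNA, germline, meiosis and testis lists, 32 were called above WT in ts1/E2 or E2 brains. These were 32 in ts1/E2 brains and 31 in E2 brains, where c(3)G, a gene of the synaptonemal complex, was not called. By list, ts1/E2 brains had 10 of 32 piRNA, 14 of 34 germline, 6 of 20 meiosis and 5 of 22 testis genes called above WT. E2 brains had 10, 14, 5 and 5 called above WT in the same lists, and some genes are in several lists. Over all 8264 genes tested, 244 were called above WT in ts1/E2 brains and 250 in E2 brains. Either way, 401 genes were called between ts1/E2 and WT brains (4.85%) and 485 between E2 and WT brains (5.87%), comparisons that share the WT arrays. The count was 256 for ts1/E2 without ts1/E2 replicate 2 and 797 without the 3 arrays that stood apart, and for E2 it was 1992 without E2 replicate 2, 1264 without E2 replicate 3 and 817 with all 33 arrays. Between ts1/E2 and E2 brains none of the 32 was called by limma, and 1 had an unadjusted p under 0.05. Their differences ran from -1.06 to 1.75 and were under 1 in size for 26 genes, or 27 genes without E2 replicate 1. The 95% interval stayed within 1 of zero for 4 genes only, or 5 without that replicate, so for most members a difference of 1 lay inside the interval.

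The gene cona, for a component of the synaptonemal complex of meiosis, had 12.64, 12.67 and 12.86 in ts1/E2 brains, against 11.90, 12.73 and 12.91 in E2 brains and 2.90 in WT brains on average. The genotypes overlapped, and the difference was 0.21 (95% interval -0.36 to 0.78), or -0.10 without E2 replicate 1. For krimp, a Tudor-domain gene of the piRNA pathway, ts1/E2 brains had 9.46 to 10.13 and E2 brains had 9.19 to 9.78 (difference 0.35, 95% interval -0.26 to 0.97, or 0.38 without E2 replicate 1), with a WT mean of 2.73. For piwi, a PIWI-clade Argonaute gene, ts1/E2 brains had 9.08, 8.55 and 9.08 and E2 brains had 8.34, 9.25 and 8.33 (difference 0.26, 95% interval -0.51 to 1.04, or 0.11 without E2 replicate 1), with a WT mean of 4.19. The other Argonautes of that clade differed by 0.06 for aub (95% interval -2.03 to 2.14) and 0.15 for AGO3 (95% interval -1.15 to 1.46).

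Several larger germline differences lay in E2 replicate 1. It was below both other E2 arrays in 23 of the 32 genes and above both in 7. The same count was not made over all genes, where this array also stood apart, with 2221 genes over 2 from the median of the 6 arrays. The counts of 23 and 7 therefore describe this array, and whether they are particular to germline genes was not tested. The clearest case was gnu, a regulator of early embryonic cell cycles, with 9.78, 9.71 and 9.64 in ts1/E2 brains and 4.01, 9.95 and 9.95 in E2 brains, so the difference of 1.75 became -0.23 without that array. For stil, a germline transcription factor gene, ts1/E2 brains had 10.31, 9.95 and 10.56 and E2 brains had 6.81, 10.05 and 10.50 (1.15, or -0.00 without the array). For vilya, a meiotic recombination gene, ts1/E2 brains had 6.64 to 7.5 and E2 brains had 2.54, 7.03 and 7.07 (1.42, or -0.08 without it). In vas, an RNA helicase gene of the germ line, the same array was the high one: ts1/E2 brains had 5.44, 6.92 and 7.02, and E2 brains had 9.22, 6.44 and 6.73. The gene with the unadjusted p under 0.05 was zpg, a germline gap junction gene, with 7.20 to 8.0 in ts1/E2 brains, against 3.85, 6.87 and 6.99 in E2 brains (difference 1.75, 95% interval 0.08 to 3.43, or 0.72 without E2 replicate 1).

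**Figure D3:**
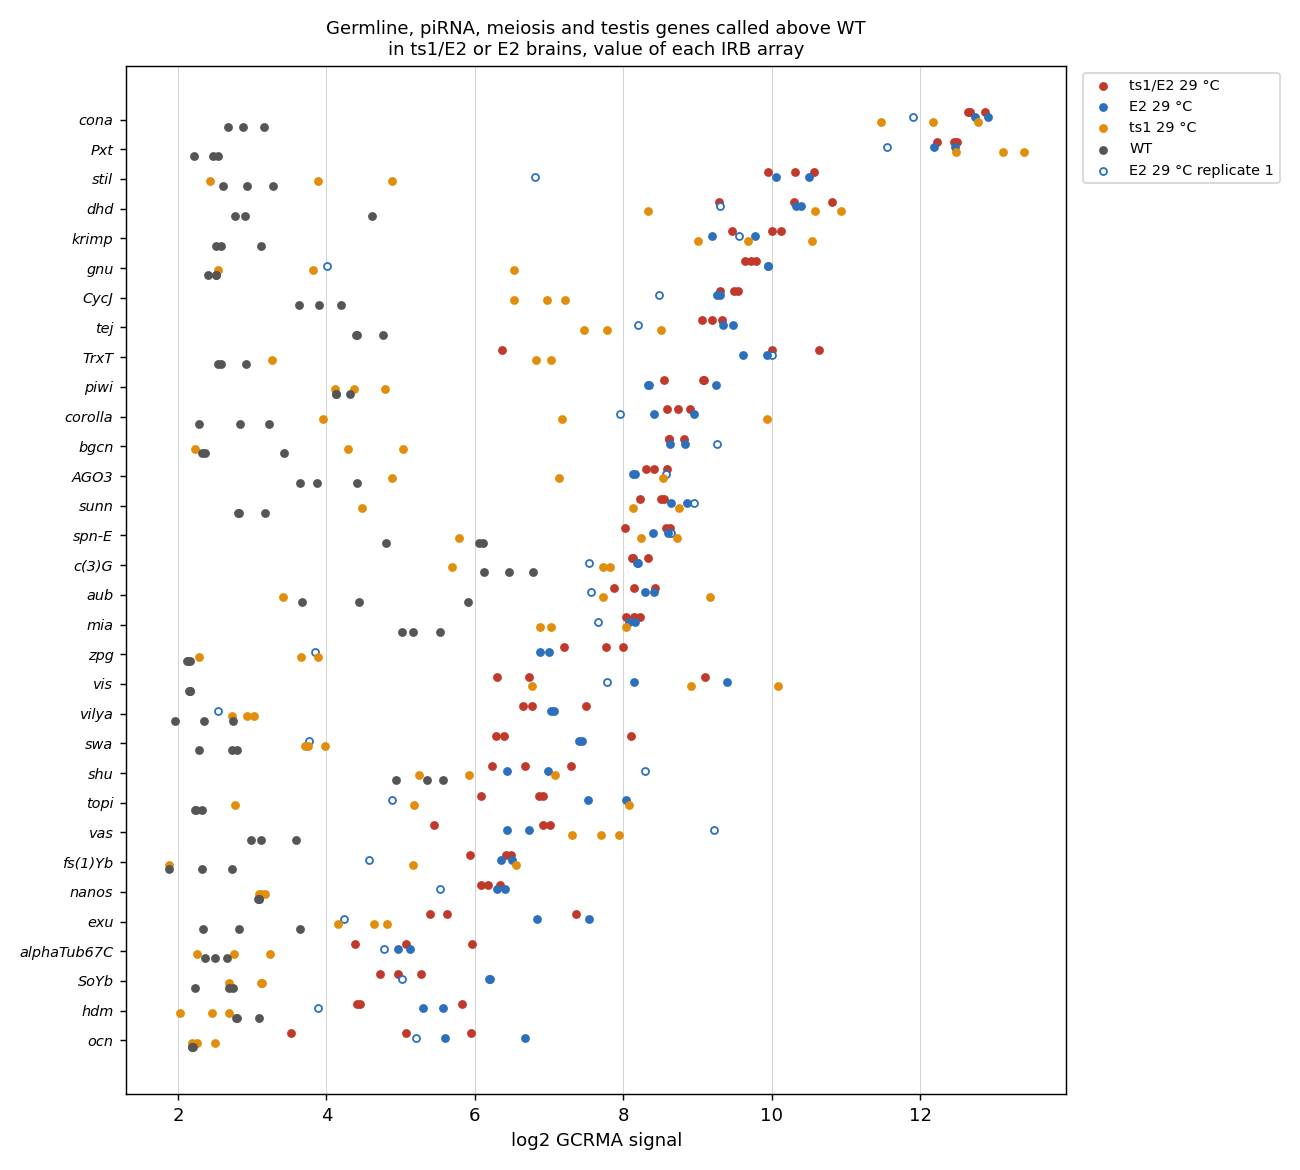
Log2 signal of the 32 germline, piRNA, meiosis and testis genes called above WT in ts1/E2 or E2 brains, 1 point per IRB array, with ts1/E2, E2, ts1 and WT offset within each row. The ts1/E2 and filled E2 points lie close together in most rows, and the open circle of E2 replicate 1 falls away from them for gnu, stil, vilya and zpg.

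A set of genes was also chosen on other arrays. At the second site, EMBL, ts1 homozygotes at 29 °C had been compared with WT on arrays that hold neither ts1/E2 nor E2 samples, and 418 genes were higher there and 243 lower. Of the 418 higher genes, 1 was called higher in ts1/E2 than in E2 brains and none lower. Their median difference was 0.224, or -0.109 without E2 replicate 1, and 81.8% differed by less than 1 (93.1% without it), beside 86.0% and 94.8% of all genes tested. Their median difference from WT was 1.13 in ts1/E2 brains and 0.99 in E2 brains (1.29 without replicate 1). Of the 243 lower genes none was called between the genotypes, and their median difference was -0.100, or -0.134 without E2 replicate 1.

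The other lists held few differences. Across the 26 lists, 1 member was called with all arrays, Obp99b among 21 fat body and salivary glue genes, and none without E2 replicate 1. Some list medians moved with E2 replicate 1 and others did not. For 43 oxidative phosphorylation genes the median difference was 0.468, or -0.058 without it. For 22 testis genes it was -0.546, or 0.006 without it. The 33 neuroblast genes had a median of -0.132 (-0.009 without it), 24 neuronal genes 0.131 (0.217), 26 glial genes 0.123 (0.013) and 35 cell cycle genes -0.057 (-0.178). For 18 optic lobe neuroepithelium and lamina genes it was -0.249 (-0.397) and for 11 glycolysis genes 0.315 (0.254), while the median of all genes was 0.069 (-0.065). Marker means per array ran from 8.45 to 9.02 in ts1/E2 brains and from 9.08 to 9.24 in E2 brains for neuroblasts, and from 10.07 to 10.47 in ts1/E2 brains and 9.16 to 10.06 in E2 brains for neurons. For neuroblasts the arrays of the genotypes did not overlap in these means. For neurons the lowest ts1/E2 mean (10.066) barely passed the highest E2 mean (10.056). Of the single neuronal markers, nSyb and fne overlapped between the genotypes and elav and brp did not. The means were not tested. The neuroblast gene mira had 9.07, 8.17 and 8.59 in ts1/E2 brains and 9.72, 9.50 and 9.06 in E2 brains (difference -0.82 ± 0.37, adjusted p = 0.495, or -0.67 without E2 replicate 1). Other genes of the neuroblast list went the other way, and differences in that list ran from -0.873 to 1.327. Among the 5 neuroblast markers, ase and insc did not overlap between the genotypes, while dpn, mira and wor did. Over all genes tested, 9.03% did not overlap. All 5 neuroblast markers, all 5 glial markers and all 4 neuronal markers on the array were above a log2 signal of 4 in both groups, and germ line markers averaged 6.28 to 6.81 over the ts1/E2 arrays, 6.39 to 7.23 over the E2 arrays and 3.10 to 3.23 over the WT arrays.

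Where both homozygotes differed, ts1/E2 brains lay nearer to E2. In a fit that left out the ts1/E2 arrays, 301 genes (3.64%) were called between E2 and ts1 homozygotes at 29 °C. On a scale with 0 at the E2 mean and 1 at the ts1 mean, the ts1/E2 means had a median position of 0.086, with quartiles of -0.107 and 0.303. Of the 301 genes, 261 (86.7%) lay nearer to E2, 179 lay between both homozygotes, 121 lay beyond E2 and 1 beyond ts1. Without E2 replicate 1, 599 genes were called and 90% of them lay nearer to E2. Without the 3 arrays that stood apart, 684 genes (8.28%) were called, 620 of them (90.6%) lay nearer to E2, and the median position was 0.120. The position is a description with no test, and the call between homozygotes requires them to differ.

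**Figure D4:**
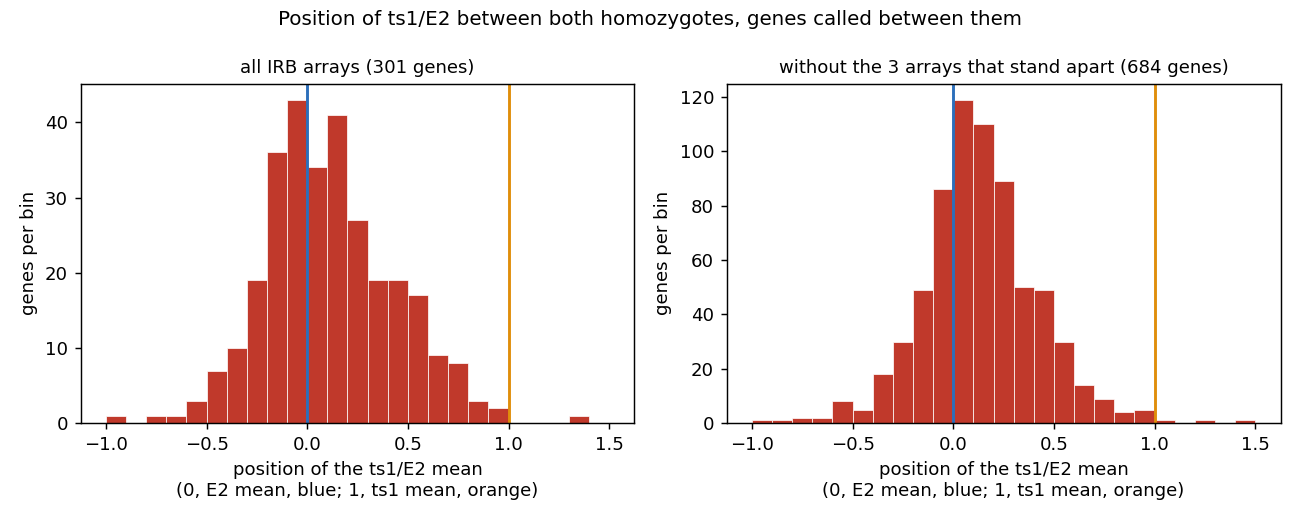
Number of genes by the position of the ts1/E2 mean between the E2 mean (0, blue line) and the ts1 mean (1, orange line) at 29 °C, for 301 genes called between both homozygotes on all IRB arrays (left) and 684 genes without the 3 arrays that stood apart (right). Positions beyond the axis are drawn at its ends, and both distributions have their bulk near 0, with medians of 0.086 and 0.120.

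Germline genes were among them. Over the piRNA, germline, meiosis and testis lists, which hold 32, 34, 20 and 22 tested genes with some in several lists, 11 members (10.6%) were called between the homozygotes, beside 3.64% of all genes tested. All 11 had ts1/E2 means nearer to E2, as did 86.7% of all genes called there, with a median position of 0.005 and a range of -0.214 to 0.289. Without E2 replicate 1 there were 18 members (17.3%), beside 599 of the 8264 genes tested. Without the 3 arrays that stood apart there were 20 (19.2%), beside 8.28% of all genes tested. All of these members lay nearer to E2. The 11 were stil, bgcn, piwi, TrxT, ocn, nanos, SoYb, hdm, alphaTub67C, CycJ and c(2)M. For piwi the ts1 mean of 4.43 lay near the WT mean of 4.19, and for bgcn, a partner of the differentiation factor Bam, ts1/E2 brains had 8.81, 8.61 and 8.61, E2 brains had 9.26, 8.62 and 8.83, ts1 brains averaged 3.85 and WT brains 2.70. For nanos, a translational repressor of the germ line, ts1/E2 brains had 6.18, 6.33 and 6.08, E2 brains had 5.52, 6.40 and 6.30, and ts1 brains averaged 3.13. In piwi and nanos the ts1 brains run at IRB thus lay near WT, while the ts1/E2 and E2 brains were high. In CG15506 the ts1 brains were the high ones: ts1/E2 brains averaged 2.23 ± 0.28 and E2 brains 2.80 ± 0.41, against 9.82 ± 1.58 in ts1 brains and 2.62 ± 0.02 in WT brains.

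Against the mean of both homozygotes, 90 genes (1.09%) were called in ts1/E2 brains, 74 higher and 16 lower. Only 23 of the higher genes lay above all 6 homozygote arrays and 9 of the lower ones below all 6, while 126 and 108 genes did so among all genes tested. The count of 90 was 24 without ts1/E2 replicate 2, 38 without ts1/E2 replicate 1, 180 without E2 replicate 3 and 165 without the 3 arrays that stood apart. Among the lists, neuropeptide genes had the most members called, 7 of 27 tested, all higher, beside 0.895% of all genes tested. Without the 3 arrays that stood apart, 10 of the 27 were called higher, beside 115 of the 8264 genes tested. None of the 27 was called between ts1/E2 and E2 brains. They encode secreted signals made by small groups of neurons and neurosecretory cells.

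For Ilp2, an insulin-like peptide of the brain, ts1/E2 brains had 10.50, 10.62 and 8.55 and E2 brains had 9.40, 9.64 and 9.81, against 2.92, 4.67 and 1.43 in ts1 brains and 9.93 to 10.01 in WT brains. The difference from the mean of the homozygotes was 3.58 ± 0.49 (SE, limma adjusted p = 0.000764), and from E2 it was 0.27. The ts1/E2 and E2 arrays overlapped, and only the ts1 arrays were low. FMRFa, which encodes FMRFamide-type peptides, had 9.34, 9.81 and 8.72 in ts1/E2 brains, 5.84, 8.80 and 8.46 in E2 brains and 4.72, 4.62 and 2.54 in ts1 brains (3.46 ± 0.61 against the homozygotes, adjusted p = 0.00663). Dh44, a diuretic hormone gene, had 8.60, 8.61 and 7.06 in ts1/E2 brains, 6.44, 7.20 and 7.87 in E2 brains and 5.51, 5.35 and 5.57 in ts1 brains (1.77 ± 0.31, adjusted p = 0.00663). The other 4 called members, Crz, Dh31, Proc and sNPF, were higher by 1.61, 1.76, 3.32 and 1.32 than the mean of the homozygotes. Ilp2, Dh44, Crz, Dh31 and sNPF were singled out after their values were seen. Akh, the adipokinetic hormone gene, varied within both genotypes, with 2.62, 10.91 and 12.72 in ts1/E2 brains and 11.59, 12.70 and 8.08 in E2 brains. Akh is made in the corpora cardiaca, a gland beside the brain, and the amount of gland in each sample was not measured.

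**Figure D5:**
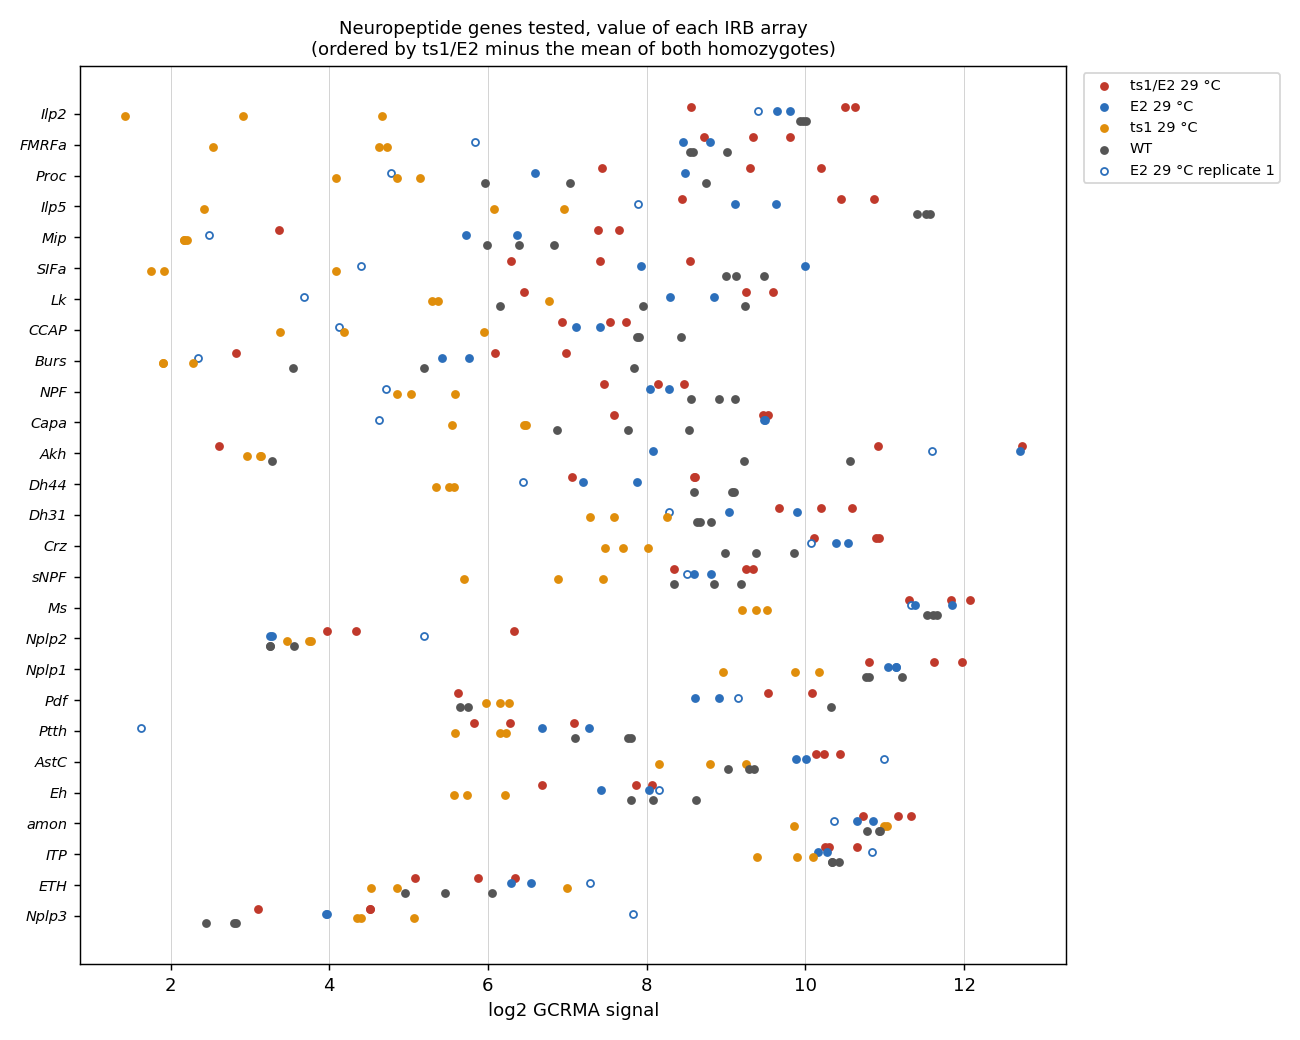
Log2 signal of the 27 neuropeptide genes tested, 1 point per IRB array, ordered by the difference of ts1/E2 brains from the mean of both homozygotes. In the upper rows the ts1/E2 points lie among the E2 and WT points, while the ts1 points are lower, as for Ilp2, where they run from 1.43 to 4.67.

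Of the 9 genes below all homozygote arrays, 3 are given here, chosen after their values were seen. Hey, a Notch target in neurons, had 7.93, 7.67 and 8.17 in ts1/E2 brains, against 9.42, 8.71 and 8.52 in E2 brains and 9.04, 9.05 and 8.81 in ts1 brains. Its difference from the mean of the homozygotes was -1.0 (limma adjusted p = 0.0173), and from E2 it was -0.96 (adjusted p = 0.243). The Notch regulator spdo had 8.06, 6.56 and 8.07 in ts1/E2 brains, 8.64, 9.22 and 8.35 in E2 brains and 9.83, 9.87 and 8.95 in ts1 brains (-1.58, adjusted p = 0.0318). The cell death gene skl had 9.20, 8.65 and 8.78 in ts1/E2 brains, 10.02, 9.85 and 9.42 in E2 brains and 10.48, 10.24 and 9.97 in ts1 brains (-1.12, adjusted p = 0.0201). In all 3 genes the WT arrays lay in or above the range of the E2 arrays, and the neuroblast marker means given above were lower in ts1/E2 brains too. The median difference from E2 over the 33 neuroblast genes was -0.132, or -0.009 without E2 replicate 1. The part of neuroblasts in the differences of these 3 genes was not tested. The 6 others were vri, ktub, GILT2, CG34282, CG14645 and CG6470.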

How the data were processed

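Expression was measured on Affymetrix Drosophila arrays, in larval brains for the genotypes compared and in cultured tumours for other arrays of the series. The values are log2 signals that the authors deposited, made with GCRMA per the submitters' processing notes, with its version and settings not given in the sources used here. The deposited WT means of the IRB and EMBL sites agree to within 6.7e-09, so the sites had been centred on WT. Of 18952 probe sets, 13647 have 1 gene in the platform annotation, 402 several and 4903 none here, with 183 controls among these. The probe set with the highest mean was kept per gene, which gave 11982 genes. Symbols and chromosome arms came from RefSeq Release 6.

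limma 3.58.1 (R 4.3.3) was fitted with lmFit and eBayes to the 24 IRB arrays in 8 groups, with group as the only term. Cultured tumours of rounds 1, 5 and 10, with 3 arrays each, are among these groups and share the estimate of spread. Benjamini-Hochberg adjustment ran over all 8264 genes tested, and the steps were tested on simulated data. Arrays have no read depth, so their number limits the precision.

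Members, gene lists and rules were chosen with earlier results of these data known. Named genes were l(3)mbt, the genes with the largest differences and no overlap each way (up to 15 called, filled up to 10), up to 4 members per list and up to 5 genes called each way against the mean of the homozygotes. Other genes named, CG1695 (higher mean below 4) among them, were chosen after their values were seen. Replicate numbers did not pair the samples. Alternatives changed the arrays, filter, normalization and eBayes settings.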

Additional observations from a re-analysis of the deposited data

Results flagged for a closer look

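Of 5122 probe sets outside the gene table, 2039 passed the same filter, and 1 was called between ts1/E2 and E2 brains. This probe set, which the annotation assigns to both tbc and CG1695 and which therefore names no gene, was higher by 1.749 log2 in ts1/E2 brains (limma adjusted p = 0.00104). It had 3.90, 4.03 and 2.98 on the ts1/E2 arrays, against 1.75, 1.92 and 1.99 on the E2 arrays and 3.75, 4.46 and 3.95 on the WT arrays. It is listed because it was not in the table of 1 probe set per gene, but its annotation is to CG1695 and tbc, whose values are given above.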

How the results depend on the processing

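Between ts1/E2 and E2 brains, leaving out each replicate gave 6 to 22 called genes, with 22 without E2 replicate 3 and 14 without ts1/E2 replicate 3. CG1695, CG8701, CG14300 and CG34282 were called each time. Obp99b was lost without E2 replicate 1 or ts1/E2 replicate 1 or 2, Damm without E2 replicate 1 or 2 or ts1/E2 replicate 1, and Pde9 without ts1/E2 replicate 1. Fitting all 33 arrays with a site term gave 3 calls (Damm, CG8701 and Pde9), array weights gave 17, and the 6 arrays alone gave 0. The cause of these changes was not tested. The filter, eBayes and quantile settings gave 6 to 9 calls. Fitting every probe set of each gene gave 8, with Fs added. The same replicate numbers do not pair the samples: deviations from the group means correlated at -0.576, -0.576 and -0.182. With the replicate number as a block in the 6 arrays, limma called 0 genes, and 76 had an unadjusted p under 0.05.

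Leaving out replicates gave 256 to 593 calls for ts1/E2 against WT (256 without ts1/E2 replicate 2), 344 to 1992 for E2 against WT (1992 without E2 replicate 2, 1264 without E2 replicate 3) and 24 to 180 against the mean of the homozygotes (180 without E2 replicate 3, 38 and 24 without ts1/E2 replicates 1 and 2). Against WT, the fit of 33 arrays gave 817 calls for E2. Without the 3 arrays that stand apart, an alternative added after seeing the data, 797 genes were called for ts1/E2 against WT and 165 against the mean of the homozygotes. No called result reversed. Of 150 named genes, 51 that were not called turned sign under at least 1 setting. In Damm, CG1695, CG8701, CG14300 and CG34282 the mean of at least one genotype lies below a log2 signal of 4, which limits how exactly the size of their differences is known.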
